A study of Mus musculus with 4 samples.

Results

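The oligoadenylate synthetase (OAS) family of the mouse was described here through 8 genes, Oas1a, Oas1b, Oas1c, Oas1g, Oas2, Oas3, Oasl1 and Oasl2, out of 52550 gene entries in the count tables. They were found by matching the Ensembl gene identifier, without its version, to the GENCODE M21 annotation, and all 8 passed the filter on low counts. The libraries were made from polyadenylated RNA of bone marrow-derived macrophages, which are macrophages grown in culture from marrow progenitors, of C57BL/6 mice aged 8 to 10 weeks. The 4 groups were miR-7 deficient macrophages given LPS, miR-7 deficient macrophages left unstimulated, wild-type macrophages given LPS and wild-type macrophages left unstimulated. LPS, the bacterial outer-membrane lipid that signals through Toll-like receptor 4, was given at 100 ng/mL for 12 hours. Each group held 1 library. How the miR-7 deficiency was made, which of the miR-7 genes it affects, the medium in which the cells were grown and the number of mice behind a library are not stated in the labels or the design text. Libraries of polyadenylated RNA do not measure mature miR-7, so the label could not be checked with it. The hairpin gene Mir7-1, which lies inside the gene Hnrnpk, had 7 and 7 counts in the miR-7 deficient LPS and unstimulated libraries, against 10 and 15 counts in the wild-type LPS and unstimulated libraries, and Mir7-2 and Mir7b had 0 in all 4. The design text states that the counts were meant to find protein-coding genes held down by miR-7.

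OAS proteins sense double-stranded RNA, which appears in cells during virus replication. On binding it, the active enzymes join ATP into short oligoadenylates with 2′-5′ linkages, called 2-5A, a second messenger that leads to the cutting of viral and cellular RNA and so stops protein synthesis. The genes are classical interferon-stimulated genes: type I interferon activates a STAT and IRF9 complex, which binds the interferon-stimulated response element (ISRE) in their promoters, and macrophages given LPS make interferon-β through TLR4 and TRIF. Mice carry a cluster of Oas1 copies, most of which are thought to lack synthetase activity.

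The family lies on chromosome 5 in 2 places (GRCm38 coordinates of the M21 genes). Oasl2 (114896936 to 114912234, plus strand) and Oasl1 (114923240 to 114937915, plus strand) stand side by side, and the other members lie 5.79 Mb further along, within a cluster of 191.3 kb that runs from Oas2 to Oas1d. In that cluster the members are Oas2 (120730333 to 120749853, minus strand), Oas3 (120753098 to 120777661, minus strand), Oas1c (120800194 to 120812514, minus strand), Oas1b (120812635 to 120824163, plus strand), Oas1g (120876142 to 120887613, minus strand) and Oas1a (120896256 to 120907521, minus strand). Oas1b and Oas1c point away from each other, with starts 121 bases apart. All members are annotated as protein coding except Oas1b, a polymorphic pseudogene: the C57BL/6 allele is known to carry a premature stop codon, and intact Oas1b is known for resistance to flaviviruses.

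Promoter windows from RefSeq (GRCm38.p6), reaching from 250 bases before to 50 bases after the start of transcription, were matched for Oas1a, Oas1c, Oas1g, Oas3, Oasl1 and Oasl2. They were searched on both strands for GAAANNGAAA, the core of the ISRE, and for TTCNNNGAA, the GAS element bound by STAT dimers. The windows below are shown because they carry the matches of the Oas1 cluster and of Oas3, and because Oasl1 had the largest LPS response. Each runs 5′ to 3′ on the gene's strand, and capitals mark ISRE core matches in either direction.
Oas1a, chr5:120907476-120907775, minus strand: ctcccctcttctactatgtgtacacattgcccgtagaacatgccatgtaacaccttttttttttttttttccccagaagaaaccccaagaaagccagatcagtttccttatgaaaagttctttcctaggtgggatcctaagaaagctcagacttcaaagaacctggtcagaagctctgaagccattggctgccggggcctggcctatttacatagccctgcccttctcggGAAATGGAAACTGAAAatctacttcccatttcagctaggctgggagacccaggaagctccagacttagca
Oas1c, chr5:120812465-120812764, minus strand: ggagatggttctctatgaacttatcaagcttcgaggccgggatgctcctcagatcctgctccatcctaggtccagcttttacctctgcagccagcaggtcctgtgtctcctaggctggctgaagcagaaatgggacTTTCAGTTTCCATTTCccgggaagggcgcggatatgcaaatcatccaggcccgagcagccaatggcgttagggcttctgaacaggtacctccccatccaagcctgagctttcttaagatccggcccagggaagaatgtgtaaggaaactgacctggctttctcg
Oas3, chr5:120777610-120777909, minus strand: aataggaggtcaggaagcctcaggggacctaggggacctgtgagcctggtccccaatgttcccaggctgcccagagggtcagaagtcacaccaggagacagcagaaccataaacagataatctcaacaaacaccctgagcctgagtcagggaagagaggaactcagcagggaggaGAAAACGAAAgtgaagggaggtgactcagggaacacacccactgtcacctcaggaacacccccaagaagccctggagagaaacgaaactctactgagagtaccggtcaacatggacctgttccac
Oasl1, chr5:114922990-114923289, plus strand: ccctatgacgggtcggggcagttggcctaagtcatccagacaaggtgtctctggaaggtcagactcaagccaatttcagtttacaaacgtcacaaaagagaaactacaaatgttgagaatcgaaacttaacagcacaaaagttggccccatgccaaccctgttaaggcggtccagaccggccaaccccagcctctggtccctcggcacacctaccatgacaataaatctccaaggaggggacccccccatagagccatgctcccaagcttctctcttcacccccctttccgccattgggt

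In the Oas1a window 2 overlapping ISRE matches formed a run of 16 bases, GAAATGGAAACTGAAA, that began 20 bases before the start. The Oas1g window, 85.3% identical to that of Oas1a in a global alignment, held the same 16 bases beginning 18 bases before its start. The Oas1c window held the same 16 bases again, on the opposite strand and starting 114 bases before the Oas1c start. That copy points toward Oas1b and ends 7 bases before the annotated Oas1b start. Oas3 had 1 match, 75 bases before its start. The windows of Oasl1 and Oasl2 held no match to these letters. Across 32851 windows of the same length, 3.44% held an ISRE core match. The GAS letters occurred in 8.3% of these windows, and among the members only in that of Oas1a. These are matches of letters in a window, and no binding was measured.

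Gene counts summed to between 33937823 and 42074624 in the 4 libraries, and 12730 genes were tested. The macrophage markers were all present in every library, led by lysozyme Lyz2. They summed to 15526 and 23300 CPM in the miR-7 deficient LPS and unstimulated libraries, and to 13682 and 22739 CPM in the wild-type LPS and unstimulated libraries. CPM here means counts scaled to a common library size after TMM normalization. Lyz2 made up most of the unstimulated sums, with 18591 CPM in deficient and 17669 CPM in wild-type cells. Single markers differed more between the unstimulated libraries, in both directions. Itgam had 291 CPM in deficient and 965 CPM in wild-type cells, and Cd68 had 844 CPM in deficient and 606 CPM in wild-type cells. Markers of neutrophils summed to 5.83 to 11.1 CPM, with 3 to 5 of 8 at 0. Those of dendritic cells summed to 10.7 to 34.0 CPM with 1 to 3 of 7 at 0, and those of stromal and endothelial cells to 2.14 to 20.5 CPM with 0 to 2 of 6 at 0. Markers of B cells, T and NK cells and erythroid cells stayed under 1 CPM in sum, with 3 to 4 of 5, 2 to 4 of 5 and 2 to 4 of 4 at 0. Mast cell and basophil markers summed to 0.153 to 7.36 CPM, all from Cpa3, with 3 of 4 at 0. In bulk RNA, a change in the share of responding cells and a change in RNA per cell cannot be told apart. The part of these marker shifts in the results was not tested.

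All 8 members rose with LPS, in both genotypes. Summed over the family, the level was 3506 CPM in the miR-7 deficient LPS library and 177 CPM in the miR-7 deficient unstimulated library, a 19.8-fold ratio. It was 3229 CPM in the wild-type LPS library and 304 CPM in the wild-type unstimulated library, a 10.6-fold ratio. The fitted LPS effect came from 1 additive model of genotype and LPS over the 4 libraries (edgeR's quasi-likelihood test, Benjamini-Hochberg adjustment over all genes tested, called under 0.05). In it the 2 genotypes stand in for replicates, so its standard errors measure how alike the pairs were and not the spread among mice. By this test 8 of 8 members were called higher, where 18.1% of all genes tested were called higher and 16.3% lower. The members' median fitted log2 effect was 3.53, beside -0.04 over all genes tested, and the members ran between 1.33 for Oas1c and 6.81 for Oasl1.

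Oas1a and Oas1g encode the mouse Oas1 enzymes with known 2-5A synthetase activity. Oas1a had 557 and 42.3 CPM in the miR-7 deficient LPS and unstimulated libraries, against 480.4 and 57.9 CPM in the wild-type LPS and unstimulated libraries. Both LPS libraries stood far above both unstimulated ones, and the fitted log2 effect was 3.38 ± 0.25 (SE; edgeR adjusted p = 0.000356). Oas1g had 277 and 13.3 CPM in the deficient LPS and unstimulated libraries, against 236 and 19.4 CPM in the wild-type LPS and unstimulated libraries. Its levels ordered the libraries in the same way, with a fitted log2 effect of 3.99 ± 0.27 (SE; edgeR adjusted p = 0.000264).

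The division of reads between Oas1a and Oas1g is uncertain, because the genes are near-copies. Their coding sequences are 96.7% identical. Of the 50-base windows in annotated transcripts, 57.6% of those of Oas1a also occur in another gene, all of these in Oas1g, and 45.7% of those of Oas1g also occur elsewhere. Their summed level does not depend on how the counted reads were split between the genes. It would lack any reads left out for mapping to both, and whether such reads were counted is not stated. The summed level was 834 and 55.6 CPM in the miR-7 deficient LPS and unstimulated libraries, against 717 and 77.3 CPM in the wild-type LPS and unstimulated libraries. Oas1g took 33.2% of the pair's counts in the deficient LPS library (exact 95% binomial interval 32.7 to 33.8%) and 23.9% in the deficient unstimulated library (22.2 to 25.8%). In wild type it took 33.0% with LPS (32.4 to 33.6%) and 25.1% without (23.6 to 26.5%). The share of Oas1g was thus higher with LPS in both genotypes, as far as the deposited counts separate the copies.

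Oas1b and Oas1c, which start back to back, had the lowest levels per kilobase among the Oas1 members with LPS. Oas1b had 23.3 and 0.994 CPM in the miR-7 deficient LPS and unstimulated libraries, against 26.3 and 1.88 CPM in the wild-type LPS and unstimulated libraries. Behind the unstimulated values lay 39 counts in the deficient and 88 in the wild-type library. The fitted log2 LPS effect of Oas1b was 4.15 ± 0.31 (SE; edgeR adjusted p = 0.000362), the second highest of the family. Oas1c, a copy thought to lack synthetase activity, had 16.2 and 5.48 CPM in the deficient LPS and unstimulated libraries, against 13.5 and 6.37 CPM in the wild-type LPS and unstimulated libraries. Its fitted log2 effect of 1.33 ± 0.27 (SE; edgeR adjusted p = 0.0116) was the lowest of the family. Its call was lost when either unstimulated library was left out, with adjusted p-values of 0.0610 without the wild-type and 0.0832 without the deficient one. Oas1c shares 227 exonic bases with the antisense gene Gm43069, which had 0 to 35 counts. A 50-base window search placed 9.82% of the Oas1c windows in other Oas1 copies. By the fitted values the divergent pair thus held both the second highest and the lowest LPS effect, with the 16-base ISRE run lying between their starts. The lead of Oas1b over Oas1g (3.99 ± 0.27, SE) was smaller than either standard error. This order was reversed without the wild-type LPS library (4.03 for Oas1b, 4.10 for Oas1g). It was also reversed without the deficient unstimulated library (3.69 for Oas1b, 3.70 for Oas1g).

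The other 4 entries of the Oas1 cluster were almost silent. Oas1e and Oas1f had 0 counts in every library, which allows up to 0.0713 to 0.0884 CPM (3 counts of the unscaled total, counting error only). Oas1d had 4 counts, all in the wild-type LPS library. Oas1h had 10 and 0 counts in the deficient LPS and unstimulated libraries, against 13 and 8 counts in the wild-type LPS and unstimulated libraries. None passed the filter on low counts. The LPS response of the cluster was thus carried by copies next to silent or nearly silent ones.

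**Figure D1:**
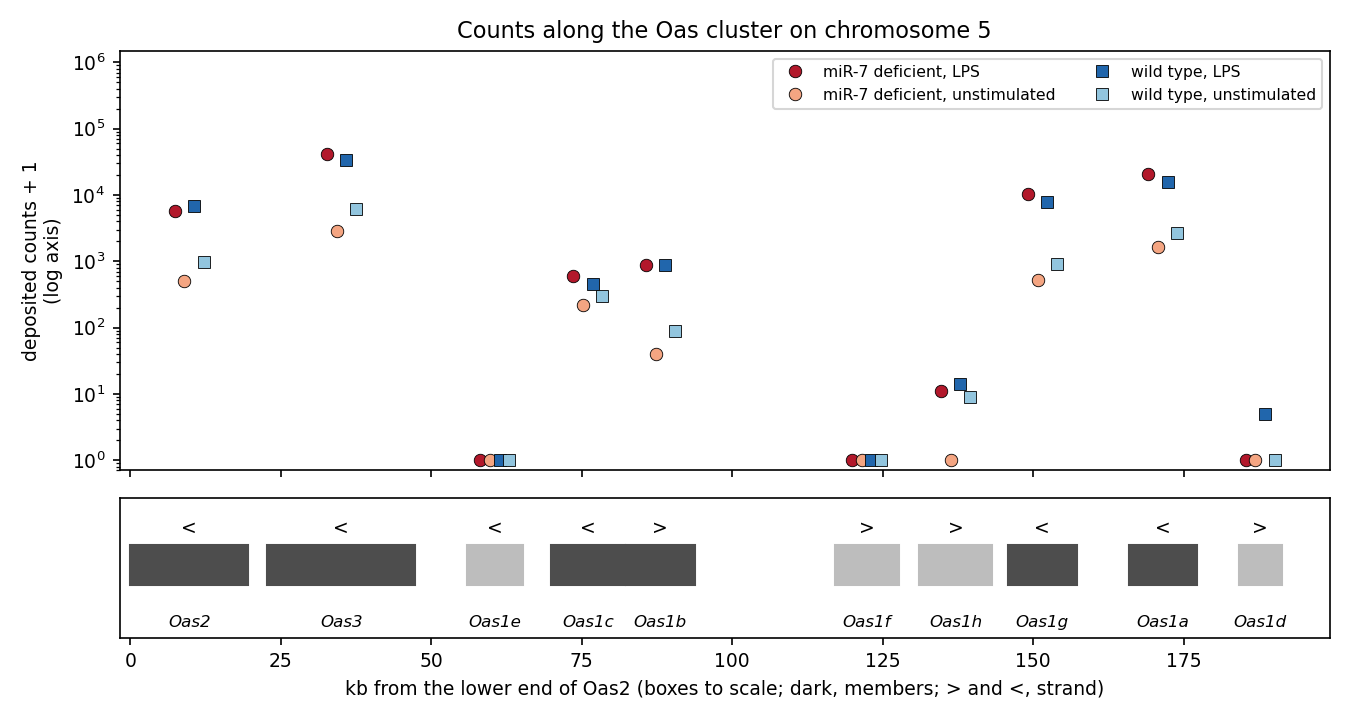
Deposited counts plus 1 (log axis) of each gene in the Oas cluster on chromosome 5, placed at its position in kilobases from the lower end of Oas2, for the 4 libraries; boxes show the genes to scale, dark for the 6 members that lie in this cluster and light for the other Oas1 entries, with < and > for the strand. Oas3 reached 41734 counts in the miR-7 deficient LPS library, while Oas1e and Oas1f had 0 counts in every library.

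Oas2 and Oas3 encode larger enzymes built from repeated OAS units; in human cells OAS3 is known as a main source of 2-5A. Oas3 had 1114 and 71.7 CPM in the miR-7 deficient LPS and unstimulated libraries, against 1018 and 134 CPM in the wild-type LPS and unstimulated libraries. Its fitted log2 LPS effect was 3.44 ± 0.31 (SE; edgeR adjusted p = 0.000642). Oas2 had 151 and 12.7 CPM in the deficient LPS and unstimulated libraries, against 209 and 20.9 CPM in the wild-type LPS and unstimulated libraries. Its fitted log2 effect was 3.45 ± 0.20 (SE; edgeR adjusted p = 0.000197), with the smallest standard error of the family. The 2 genes, neighbours on the chromosome, thus had nearly the same fitted LPS effect, while per kilobase of exon Oas3 stood at 158 and Oas2 at 34.0 RPKM in the deficient LPS library.

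Oasl1 and Oasl2 encode OAS-like proteins with ubiquitin-like ends. Mouse Oasl1 lacks synthetase activity and is known to block translation of Irf7 mRNA, a brake on type I interferon production, whereas mouse Oasl2 keeps synthetase activity. Oasl1 had 914 and 3.54 CPM in the miR-7 deficient LPS and unstimulated libraries, against 817 and 15.8 CPM in the wild-type LPS and unstimulated libraries. Both unstimulated levels were low, and the deficient one was the lower, while the LPS levels were close to each other. Its fitted log2 effect was 6.81 ± 0.65 (SE; edgeR adjusted p = 0.000748), the highest of the family and the one with the widest error. It was 7.95 without the wild-type unstimulated library and 5.74 without the deficient unstimulated library, in a model of LPS alone. Oasl2 had 453 and 26.9 CPM in the deficient LPS and unstimulated libraries, against 428 and 47.7 CPM in the wild-type LPS and unstimulated libraries. Its fitted log2 effect of 3.62 ± 0.29 (SE; edgeR adjusted p = 0.000435) lay a little above those of Oas1a, Oas2 and Oas3, by less than its standard error. The coding sequences of Oasl1 and Oasl2 are 61.9% identical, and none of the 50-base windows of Oasl1 occurs in another gene. Oasl1 shares 38 exonic bases with the antisense gene Gm13822, which had 0 to 97 counts.

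**Figure D2:**
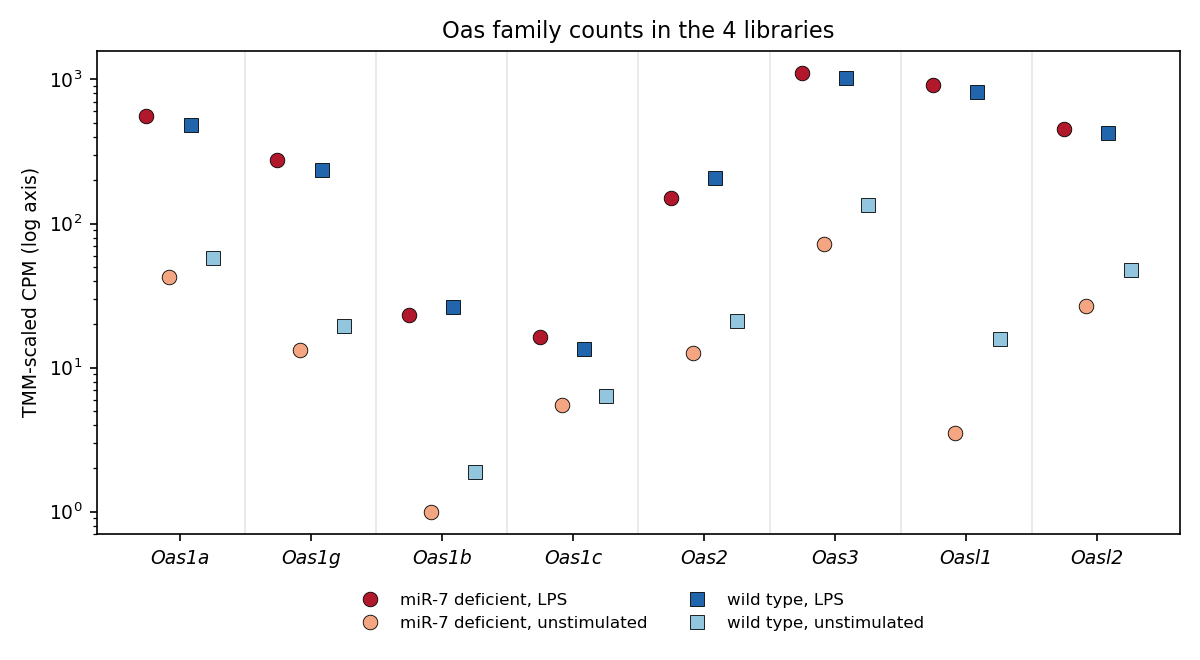
TMM-scaled CPM (log axis) of the 8 members in the 4 libraries, 1 point per library; circles are miR-7 deficient and squares wild type, dark with LPS and light unstimulated. For every member both LPS points lie above both unstimulated points, with the widest gap for Oasl1 and the narrowest for Oas1c.

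Taken pair by pair, the ratio of LPS to unstimulated counts was larger in the miR-7 deficient pair than in the wild-type pair for each member. For Oasl1 the fold was 258 in the deficient pair and 51.6 in the wild-type pair. For Oas3 it was 15.5 in the deficient pair and 7.62 in the wild-type pair, and for Oasl2 16.9 in the deficient pair and 8.96 in the wild-type pair. Oas1b had folds of 23.5 in the deficient pair and 14.0 in the wild-type pair, and Oas1g 20.8 in the deficient pair and 12.2 in the wild-type pair. For Oas1a the fold was 13.2 in the deficient pair and 8.29 in the wild-type pair. Oas2 had the most similar folds, 11.9 in the deficient pair and 9.98 in the wild-type pair. Oas1c had 2.96 in the deficient pair and 2.13 in the wild-type pair. The whole 95% counting interval of the ratio lay beyond 2-fold for 8 members in the deficient pair and 7 in the wild-type pair, all but Oas1c. Over all genes tested the shares were 12.5% in the deficient pair and 14.8% in the wild-type pair.

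The log2 ratio of the 2 LPS ratios, deficient over wild type, ran between 0.26 for Oas2 (95% counting interval 0.09 to 0.42) and 2.32 for Oasl1 (2.06 to 2.58). Its counting interval lay above 0 for 8 of 8 members, against 31.5% of all genes tested, with a median of 0.75 for the members and -0.00 over all genes. It lay wholly beyond 2-fold for Oasl1 alone, against 2.26% of all genes. After the subtraction from the wild-type unstimulated library described below, the interval lay above 0 for 6 of 8 members, with those of Oas1b and Oas2 including 0, and the value of Oasl1 was 1.51 (1.24 to 1.79) or 0.89 (0.60 to 1.19), the second no longer wholly beyond 2-fold. Each value compares single libraries, so counting intervals leave out variation between cultures, and no test of the difference was possible. The additive model treats this same term as its residual.

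**Figure D3:**
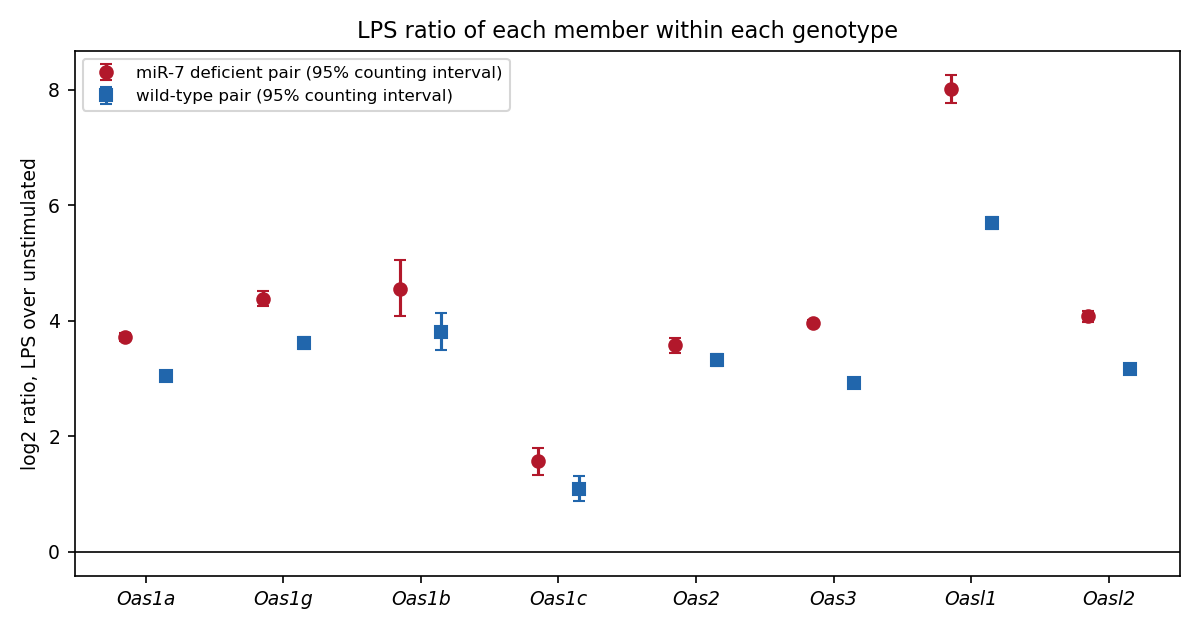
Log2 ratio of LPS over unstimulated TMM-scaled counts for each member, in the miR-7 deficient pair (circles) and the wild-type pair (squares), with exact 95% counting intervals. The circle lies above the square for each member, by 0.26 for Oas2 and by 2.32 for Oasl1.

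The difference between the pairs lay in the unstimulated libraries more than in the LPS libraries. Without LPS, the family summed to 177 CPM in miR-7 deficient macrophages and 304 CPM in wild type, a ratio of 0.583. With LPS the ratio of deficient to wild type was 1.09. Without LPS, the log2 ratio of deficient over wild type was -2.16 for Oasl1 (95% counting interval -2.43 to -1.90), -0.92 for Oas1b (-1.5 to -0.36) and -0.90 for Oas3 (-0.96 to -0.83). It was -0.83 for Oasl2 (-0.94 to -0.72), -0.72 for Oas2 (-0.88 to -0.56), -0.54 for Oas1g (-0.70 to -0.38) and -0.45 for Oas1a (-0.54 to -0.37). For Oas1c it was -0.22 with an interval that included 0 (-0.48 to 0.04). The interval lay below 0 for 7 of 8 members, against 30.7% of all genes tested, and above 0 for none, against 31.9%. The median was -0.77 for the members and -0.00 over all genes.

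For comparison, the same ratio was taken over all genes that rose with LPS, the members included. Among these 2300 genes, the median log2 ratio of deficient over wild type without LPS was 0.05, with intervals below 0 for 28.0% and above 0 for 36.9%. Among the 568 of them with a fitted log2 LPS effect of 3 or more, the median was -0.10, with 33.3% below 0 and 25.4% above.

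With LPS, the ratio lay closer to 0 than without it for 7 members, all but Oas1c. The log2 ratio of deficient over wild type was 0.26 for Oas1c, 0.23 for Oas1g, 0.21 for Oas1a, 0.16 for Oasl1, 0.13 for Oas3 and 0.08 for Oasl2. It was -0.17 for Oas1b (-0.31 to -0.04) and -0.46 for Oas2 (-0.51 to -0.41). By counting intervals 6 members were higher in the deficient library and 2 lower, against 34.8% of all genes higher and 31.6% lower. Oas2 was thus the member with the lowest level in deficient relative to wild-type cells with LPS, and Oas2 and Oas1b were the members that were lower in the deficient library in both conditions. With scaling to total counts, the interval of Oas1b with LPS included 0 (-0.24 to 0.04).

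No member passed the test for genotype, where 0.385% of all genes tested were called higher and 0.165% lower. The fitted log2 effects of miR-7 deficiency ran between -0.94 ± 0.53 for Oasl1 (SE; edgeR adjusted p = 0.839) and 0.02 ± 0.26 for Oas1c (adjusted p = 0.997), with 7 of 8 below 0. Oas2 came nearest, at -0.59 ± 0.19 (SE), with an unadjusted p of 0.0187 and an adjusted p of 0.460 by edgeR's quasi-likelihood test. It was the 1 member with an unadjusted p under 0.05, against 7.61% of all genes tested.

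A feature of the wild-type unstimulated library touches these ratios. Among 532 genes of at least 300 CPM in the wild-type LPS library, the 25 with the lowest counts in the wild-type unstimulated library relative to the LPS library still had 1.17 to 1.97% of the LPS counts there. In the miR-7 deficient pair the same 25 genes had 0.0428 to 1.22%, with a median of 0.395%. Whether reads of the wild-type LPS library are present in the wild-type unstimulated library was not tested. After the data were seen, each gene's wild-type unstimulated count was reduced by 1.17% of its wild-type LPS count, the lowest share, or by 1.72%, the median of the 25. The unstimulated log2 ratio of Oasl1, deficient over wild type, was then -1.36 or -0.74 in place of -2.16, and its wild-type LPS fold was 90.2 or 139 in place of 51.6. The interval stayed below 0 for 7 of 8 members under both, and the members' median was -0.66 or -0.59. Oasl1 was thus the member whose ratio depended most on this step, while the values of Oas3 were -0.80 or -0.76 and those of Oas2 -0.60 or -0.53.

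**Figure D4:**
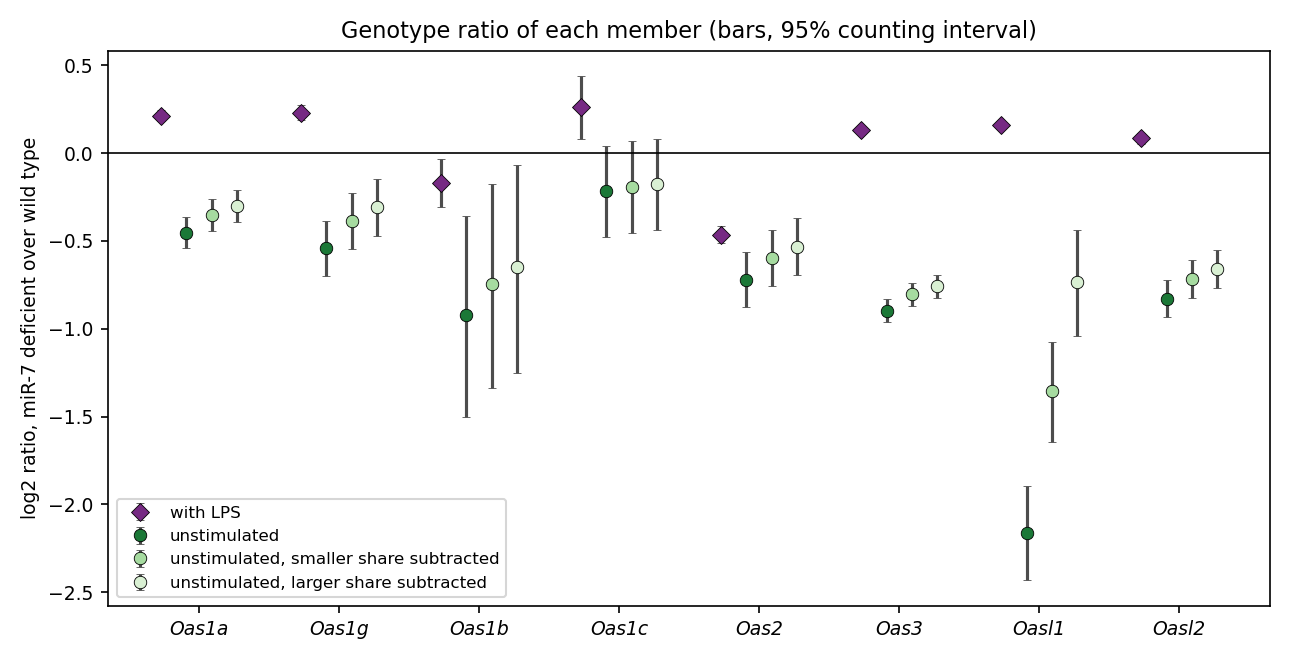
Log2 ratio of miR-7 deficient over wild-type TMM-scaled counts for each member with LPS (diamonds) and unstimulated (circles), with exact 95% counting intervals; lighter circles show the unstimulated ratio after 1.17% or 1.72% of the wild-type LPS counts were taken from the wild-type unstimulated library. Unstimulated circles lie below 0, except that the intervals of Oas1c include 0, and Oasl1 moves from -2.16 to -1.36 or -0.74.

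Levels of different genes were compared per kilobase of merged exon (TMM-scaled RPKM, with exact Poisson intervals). In both LPS libraries the order in the deposited counts was Oasl1, Oas1a, Oas3, Oas1g, Oasl2, Oas2, Oas1b and Oas1c. The places of Oas1a and Oas1g are uncertain in all 4 libraries. Of their 50-base windows 57.6% and 45.7% occur in another gene, and the handling of reads that map to several places is not stated. Oasl1 stood at 350.3 RPKM in the deficient and 313 RPKM in the wild-type LPS library, and Oas1c at 6.74 RPKM in the deficient and 5.63 RPKM in the wild-type LPS library. In both unstimulated libraries Oas1a led, with 22.4 RPKM in deficient and 30.7 RPKM in wild-type cells, followed by Oas3 with 10.1 RPKM in deficient and 18.9 RPKM in wild-type cells. Oasl1 was the seventh in the deficient unstimulated library, at 1.36 RPKM, and the fifth in the wild-type unstimulated library, at 6.07 RPKM. After the subtraction described above, wild-type unstimulated Oasl1 stood at 9.06 or 5.90 CPM in place of 15.8. Its place in that library thus depended on this step. Neighbours in the order had counting intervals that did not overlap, except Oas1g (7.75 to 8.83 RPKM) and Oasl2 (7.18 to 7.81 RPKM) in the wild-type unstimulated library. With the length of the longest transcript in place of merged exons, Oasl2 stood above Oas1g in all 4 libraries.

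**Figure D5:**
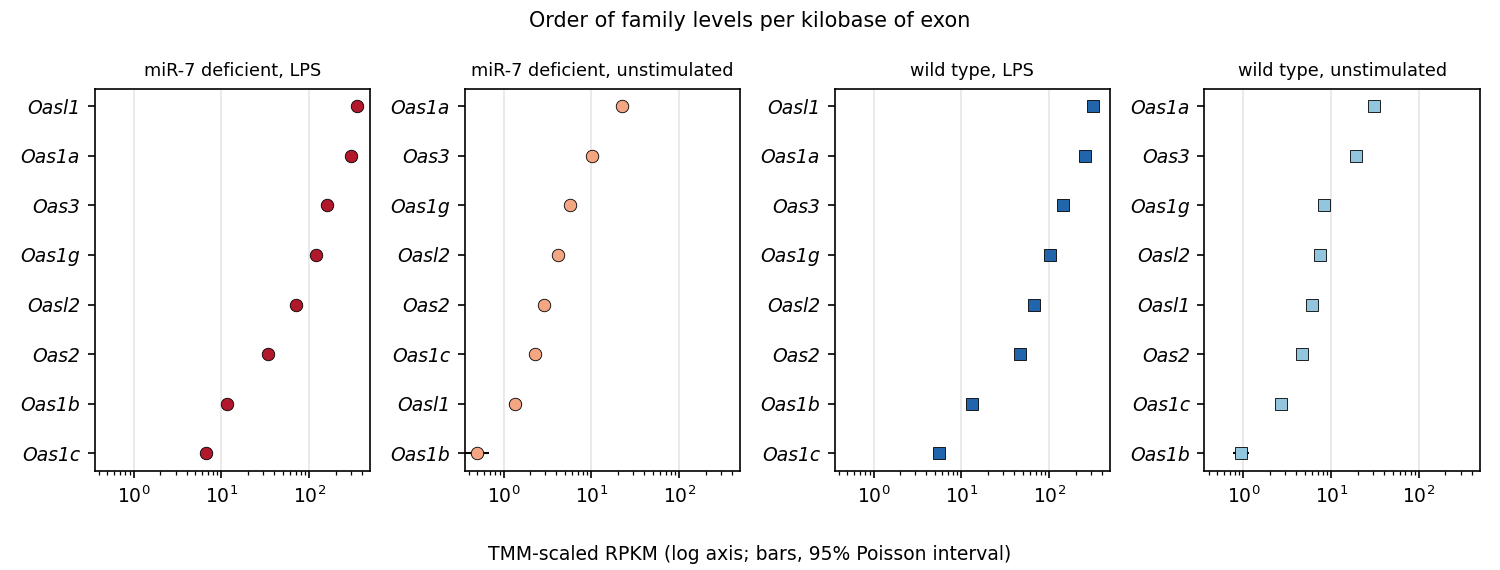
TMM-scaled RPKM (log axis, 95% Poisson intervals) of the 8 members in each library, ordered from highest at the top; 1 panel per library. Oasl1 is at the top of both LPS panels, and is the seventh from the top in the miR-7 deficient and the fifth in the wild-type unstimulated panel. Levels are shown without the subtraction from the wild-type unstimulated library, and the places of the near-copies Oas1a and Oas1g are uncertain.

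The make-up of the family's counts changed with LPS. Oasl1 made up 26.1% of the family's counts in the deficient LPS library and 2.0% in the deficient unstimulated one, against 25.3% and 5.22% in the wild-type LPS and unstimulated libraries. Oas3 made up 31.8% and 40.6% in the deficient LPS and unstimulated libraries, against 31.5% and 44.0% in the wild-type ones. Together the members held 0.312% and 0.0205% of all counts in the deficient LPS and unstimulated libraries, against 0.273% and 0.0349% in the wild-type LPS and unstimulated libraries. In the deposited counts, the shares taken by Oasl1 and Oas3 were thus nearly equal between genotypes with LPS and differed more without it. The subtraction described above left 424 or 276 of the 741 Oasl1 counts in the wild-type unstimulated library. The share of Oasl1 there thus depended on that step.

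Genes tied to 2-5A beyond the synthetases were measured beside the family. Pde12, a phosphodiesterase that degrades 2-5A, had 20.6 and 26.2 CPM in the miR-7 deficient LPS and unstimulated libraries, against 20.3 and 25.5 CPM in the wild-type LPS and unstimulated libraries. Its fitted log2 LPS effect was -0.34 ± 0.20 (SE; edgeR adjusted p = 0.250), which did not pass. Abce1, known as a ribosome recycling factor, was fitted at -0.20 ± 0.19 (SE; edgeR adjusted p = 0.450) and did not pass either. Akap7, whose mouse protein also cuts 2-5A, had 3.71 and 5.43 CPM in the deficient LPS and unstimulated libraries, against 6.76 and 4.23 CPM in the wild-type LPS and unstimulated libraries. Its fitted log2 LPS effect was 0.07 ± 0.42 (SE; edgeR adjusted p = 0.917). The Akap7 pairs thus went in opposite directions, at low levels.

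A list of genes for sensing double-stranded or foreign nucleic acid held sensors and also adaptors and ubiquitin ligases. Of its 13 genes tested, 11 were called higher with LPS and 0 lower. Over all genes tested, 18.1% were called higher and 16.3% lower. The median fitted log2 effect of the 13 was 2.32. Ifih1, which encodes the RNA sensor MDA5, had 986 and 39.0 CPM in the deficient LPS and unstimulated libraries, against 887 and 46.3 CPM in the wild-type LPS and unstimulated libraries. Its fitted log2 effect was 4.46 ± 0.24 (SE; edgeR adjusted p = 0.000173). Mavs, the adaptor of MDA5, was fitted at -0.40 ± 0.20 and Tmem173, which encodes STING, at -0.64 ± 0.22 (SE), and neither passed. Without LPS, the genotype ratio had an interval below 0 for 7 of the 13 and above 0 for 2. The shares over all genes tested were 30.7% below 0 and 31.9% above 0. The median log2 ratio of the 13 was -0.10. The lowest of these was Trim25, a ubiquitin ligase of the RIG-I pathway, at -1.52 without LPS and -0.53 with it.

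Of 16 genes of interferon signalling, 14 were tested. With LPS 10 were called higher, against 18.1% of all genes tested, and 3 did not pass. The interferon-γ receptor chain Ifngr1, fitted at -2.17 ± 0.19, was the 1 called lower, against 16.3% of all genes. Stat2, a subunit of the ISRE-binding complex, was fitted at 3.91 ± 0.23 (SE; edgeR adjusted p = 0.000197). Ifnb1, which encodes interferon-β, had 23 and 0 counts in the deficient LPS and unstimulated libraries, against 11 and 0 counts in the wild-type LPS and unstimulated libraries, and Ifna4 had 0 in all; neither was tested. Irf7, the factor whose translation Oasl1 is known to block, had 1164 and 9.45 CPM in the deficient LPS and unstimulated libraries, against 1080 and 28.0 CPM in the wild-type LPS and unstimulated libraries. The Irf7 ratio of deficient over wild type without LPS was -1.57 on the log2 scale, and with LPS 0.11. This ratio without LPS and those of the lists here and above were taken without the subtraction from the wild-type unstimulated library. Irf7 had 1310 counts there and 35797 in the wild-type LPS library, and the effect of that step on its ratio was not tested. Without LPS the interval lay below 0 for 9 of the 14 tested genes, against 30.7% of all genes tested. It lay above 0 for 4, against 31.9%. The median log2 ratio was -0.24, beside -0.77 for the OAS members. No gene of these lists passed the test for genotype, where 0.385% of all genes tested were called higher and 0.165% lower.

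Genes outside the family were ranked by how close their pattern over the 4 libraries came, as the Euclidean distance between centred log2(CPM + 0.5) values, among 4827 protein-coding genes. The nearest gene to the mean profile of the family was Bst2, which encodes tetherin, an inhibitor of virus release, at a distance of 0.193, followed by Fcgr1, Stat2, Ddx58 and Slc28a2. Fcgr1, a high-affinity Fc receptor gene, was nearest to both Oas3 (0.196) and Oasl2 (0.235). Ly6i was nearest to Oas1a (0.0914), Mov10, an RNA helicase gene, to Oas1g (0.116), Bst2 to Oas1b (0.251) and Epsti1 to Oas2 (0.224). Oas1c stood near the MHC class I-like gene H2-T23 (0.0627), with 851 and 302 CPM in the deficient LPS and unstimulated libraries and 744 and 343 CPM in the wild-type LPS and unstimulated libraries. Oasl1 stood nearest to the histidine decarboxylase gene Hdc (0.0705), then to Isg15 (0.356) and Cd40 (0.407). Hdc had 130.3 and 0.102 CPM in the deficient LPS and unstimulated libraries, against 118 and 1.99 CPM in the wild-type LPS and unstimulated libraries. Its deficient unstimulated level lies below the 0.5 that was added, so that addition limits its distance from Oasl1. All distances were taken without the subtraction from the wild-type unstimulated library. The part of that library's feature in the nearness of Hdc, Isg15 and Cd40 to Oasl1 was not tested. Within the family, Oas3 and Oasl2 were the closest pair (0.175) and Oas1c and Oasl1 the farthest (5.62).

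Because the study compares miR-7 deficient with wild-type cells, the 3′ UTRs of the members were searched for sites that pair with its seed, bases 2 to 8, shown in capitals. The mature forms from RefSeq (GRCm38.p6), which share this seed, are printed with the site found.
miR-7a-5p: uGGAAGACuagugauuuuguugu
miR-7b-5p: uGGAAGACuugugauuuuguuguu
Oas2 site, chromosome 5: ccctcggaGTCTTCCAttgtgcgt

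In the Oas2 line, capitals mark the 8 bases that pair with the seed and the A opposite base 1 of the microRNA, at bases 443 to 450 of the longest annotated 3′ UTR of Oas2, which has 1625 bases. Oas2 was the 1 member of 8 with a site of 7 or more bases, a share to be read beside 28.5% of the 11314 tested genes with an annotated 3′ UTR. Sites of 8 bases were found in 4.58% of these genes. Shorter matches of 6 bases occurred in 3 of 8 members (Oas2, Oas3 and Oasl1), beside 49.4% of the genes. Oas2, the member with the site, was lower in the deficient library both with LPS (-0.46) and without it (-0.72, log2), at the values given above. Oas1b, which has no match of 6 or more bases, was also lower there with LPS (-0.17) and without it (-0.92, log2). With scaling to total counts, the Oas1b value with LPS was -0.10 and its interval included 0 (-0.24 to 0.04). A link between the site and these levels was not tested. A match is a description of the sequence, and pairing with miR-7 was not measured.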

How the data were processed

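The authors deposited 1 table of whole-number read counts for each library, not normalized. Per the series design text, poly(A)-enriched RNA was run on a HiSeq 2000 and processed with Casava 1.8.2 and Cutadapt, alignment used TopHat 2.0.13 and Bowtie2, and Partek supplied the exon annotation. Per the submitters' processing notes, HTSeq was used and the build was mm8. Neither source states the strand setting or what was done with reads that map to several places. Of 52550 gene identifiers, 52403 (99.7%) matched GENCODE M21 on GRCm38, from which symbols, coordinates and exonic overlaps were taken, whatever build the reads were aligned to.

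The test kept genes that reached 1 CPM in 2 or more libraries. Library sizes were scaled by TMM (factors 0.890 and 1.16 for the miR-7 deficient LPS and unstimulated libraries, 0.846 and 1.15 for the wild-type LPS and unstimulated libraries). Genotype and LPS entered 1 additive quasi-likelihood model over all genes in edgeR 4.0.16 (limma 3.58.1, R 4.3.3), with 1 residual degree of freedom, a biological coefficient of variation of 0.247 and 5.18 prior degrees of freedom. P-values were adjusted by Benjamini-Hochberg over all genes tested and measure how alike the pairs of libraries were. Standard errors were obtained from the fitted log2 value and its F statistic. The procedure was tested on simulated data. For pairs of libraries, TMM-scaled counts were set against each other as log2 ratios with exact Clopper-Pearson 95% intervals, and ratios of ratios had normal 95% intervals after 0.5 counts were added. Such intervals, and limits for 0 counts, hold counting error alone, because each group held 1 library. PCR copies of a molecule are counted separately, so the intervals may understate that error too. Percent identity came from global alignments, with gaps counted.

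The members, gene lists, marker lists and tests were chosen with earlier results of these data known. All members are named, with those 2-5A partners and those genes of the other lists that a result turns on and that are reported here, and up to 3 nearest patterns per member (5 for the mean profile). Results for some list genes are not reported here. The settings tried as alternatives were DESeq2 1.42.0 (size factors and Wald test), scaling to total counts, testing without a filter or with a minimum of 10 CPM, models of 1 factor, leaving out each library, longest transcripts and, added after the data were seen, subtraction of a share of the wild-type LPS counts.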

Additional observations from a re-analysis of the deposited data

Results flagged for a closer look

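For 5 members the log2 ratio of miR-7 deficient over wild-type counts had opposite signs without and with LPS, with both counting intervals apart from 0, by single libraries and with no test of the difference. The ratio without LPS was -0.45 for Oas1a, -0.54 for Oas1g, -0.90 for Oas3, -2.16 for Oasl1 and -0.83 for Oasl2. The ratio with LPS was 0.21 for Oas1a, 0.23 for Oas1g, 0.13 for Oas3, 0.16 for Oasl1 and 0.0835 for Oasl2. Subtracting a share of the wild-type LPS counts from the wild-type unstimulated library left the ratio without LPS below 0 for each of the 5, and whether reads are shared by these libraries was not tested. Oas1c also changed sign, but its interval without LPS included 0.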

How the results depend on the processing

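No paired analysis was possible because each group holds 1 library and replicate numbers pair nothing beyond genotype and LPS, on which the additive model already blocks. Of the 8 members called higher with LPS, 8 were called under both DESeq2 alternatives, scaling to total counts, testing without a filter, a minimum of 10 CPM, a model of LPS alone and both subtractions; leaving out 1 library gave 7 or 8. Scaling to total counts moved the median fitted LPS value over all genes by -0.41 (log2). The fitted LPS effect of Oas1c was then 0.92. In the deficient pair 7 members in place of 8 had an LPS ratio wholly beyond 2-fold, with an interval of 0.96 to 1.42 (log2) for Oas1c. Under total counts 1 member, Oas2, in place of 2 was lower in the deficient library with LPS, and the interval of Oas1b included 0. Among the 2-5A partners and the genes of double-stranded RNA sensing, 2 genes each in place of 0 were called lower with LPS. The cause was not tested.

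No member was called for genotype under any alternative. The fitted genotype effect of Oas1c was -0.00 under DESeq2 size factors (-3.88e-05), a minimum of 10 CPM (-0.000511) and DESeq2's Wald test (-0.00072), and -0.01 (-0.00745) with no filter. In a model of genotype alone it was 0.15 for Oas1a, 0.18 for Oas1g, 0.0421 for Oas3, 0.14 for Oasl1 and 0.0140 for Oasl2. Leaving out 1 library in that model, in which the lone sample of a genotype is assumed to vary like the others and LPS is mixed with genotype, gave -2.69 to 2.39 for Oas1a, -3.84 to 2.71 for Oas1b, -0.87 to 0.78 for Oas1c, -3.28 to 2.92 for Oas1g, -3.19 to 1.99 for Oas2, -3.02 to 2.17 for Oas3, -6.90 to 4.87 for Oasl1 and -3.16 to 2.35 for Oasl2. The LPS effect of Oas1c ran between 1.20 and 1.47 over these fits, with adjusted p-values between 0.00261 and 0.0832 over all alternatives.

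With 1 library per group, neither a difference between mice nor one between cultures can be told apart from genotype or LPS. Depth limits Oas1b most, which had 39 and 88 counts in the deficient and wild-type unstimulated libraries, and Oasl1, with 139 counts in the deficient one.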
